A study of Mus musculus with 6 samples.

Results

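The 9 genes described here are Nnt, Casp4, Wdfy1, Ide, Entpd4, Disc1, Trim12a, Nlrp1b and Cd244. They were taken by name, out of 46078 genes counted, because deletions, copy number differences or expression variants of them are known among laboratory mouse strains, and the tumors came from mice of a mixed C57BL6/SV129 strain. Cd244 is listed under the symbol Cd244a in the annotation. All 9 had a row in the count tables, 8 held counts in at least 1 library and passed the filter on low counts, and Entpd4 was at 0 throughout.

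RNA was sequenced from adenomas of the small intestine. The mice of both groups carried the ApcMin allele, a truncating mutation of the Wnt pathway regulator Apc that causes intestinal polyps, and were 18 weeks old. One group, called KO, had the genotype miR-34a/b/c-/-;ApcMin/+ and lacked a family of microRNAs induced by p53. The other, called WT, had the genotype miR-34a/b/c+/+;ApcMin/+. Each group had 3 libraries (KO1 to KO3 and WT1 to WT3), each from 3 pooled tumors of 1 mouse, so the mouse is the replicate and single tumors cannot be told apart.

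Inbred C57BL/6 and 129 mice carry different alleles at many loci, and in a mixed line each animal inherits its own combination. C57BL/6J lacks a run of Nnt exons, while 129 mice keep an intact gene. In 129 mice a splice site change disables caspase-11, the product of Casp4, and a small coding deletion truncates Disc1. Nlrp1b and the SLAM receptor cluster around Cd244 are polymorphic between inbred strains, and a copy number difference over Ide has been described within C57BL/6J colonies. A count per gene does not carry the allele, so which strain a locus came from in a given mouse cannot be told from these values. Every level below pools the aligned reads of whichever alleles were present. Alignment was to mm10, built from C57BL/6J, and whether reads of 129 alleles were lost was not tested.

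Depth per library was between 26375035 and 38354355 counts, and 3 counts corresponded to 0.0782 to 0.114 CPM (counts-per-million). Xist and Y-linked counts placed 1 male in each group, KO2 and WT3. KO1 and KO3 lay apart from the other 4 libraries on the leading principal component, which held 40.8% of the variance, and WT2 lay farthest from them. Results that rest on KO1 and KO3 are also given without them. The rows of the deleted microRNA genes were at 0 counts in all 6 libraries, which checks nothing about the genotype. Summed CPM of 12 epithelial markers lay between 13942 and 18399 in KO libraries and between 16449 and 20747 in WT libraries, with all 12 detected. In a tumor pool, fewer cells of a type and less RNA per cell cannot be told apart.

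The sequences of Entpd4, Trim12a and Nnt are shown first because they bear on what a count can report: Entpd4 has an identical copy, Trim12a a near copy, and the annotated Nnt transcript carries the C57BL/6J allele. For Entpd4 and Trim12a the first 60 coding bases of a GENCODE M21 transcript are shown beside those of the copy. The pair of Entpd4 transcripts was identical over all 3589 bases. The coding sequences of Trim12a and Trim12c differed at 32 of 891 aligned bases (96.4% identical), and in the stretch shown they differed as G36A and G49C, counted from 1 at the first coding base with the Trim12a base first (capitals mark both positions).
Entpd4: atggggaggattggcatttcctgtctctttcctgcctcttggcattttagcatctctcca
Entpd4b: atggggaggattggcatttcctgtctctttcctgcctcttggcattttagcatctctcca
Trim12a coding start: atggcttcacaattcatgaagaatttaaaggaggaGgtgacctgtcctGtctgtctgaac
Trim12c coding start: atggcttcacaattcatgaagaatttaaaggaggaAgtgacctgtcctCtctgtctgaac

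The mm10 genome was built from C57BL/6J, and its Nnt transcript has 17 exons and codes for 835 amino acids. The exons lost from that substrain lie after the sixth exon, between the 30 bases in lower case (end of exon 6) and the 30 in capitals (start of exon 7 as numbered in this transcript). The deposited Nnt count was therefore made against exons that both alleles share.
Nnt: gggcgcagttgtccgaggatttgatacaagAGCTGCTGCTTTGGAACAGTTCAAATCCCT

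Levels are compared between genes as CPM per kilobase of annotated exon, given as the mean ± SD over all 6 libraries. Ide was the highest at 12.9 ± 1.29, followed by Wdfy1 at 11.0 ± 1.67, Nnt at 7.17 ± 2.32, Trim12a at 3.10 ± 1.32, Casp4 at 2.45 ± 0.903, Cd244 at 1.97 ± 0.509, Nlrp1b at 0.858 ± 0.537 and Disc1 at 0.247 ± 0.0859. Only 1 pair of neighbours in this order did not overlap in range: the lowest Nnt library (4.97) lay above the highest Trim12a library (4.95), a margin far smaller than either SD. The top of the order was held by the enzymes Ide and Nnt and by Wdfy1, an adaptor of Toll-like receptor signalling. The other immune genes, Trim12a, Casp4, Cd244 and Nlrp1b, lay below them, and Disc1, a centrosomal scaffold, was the lowest.

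**Figure D1:**
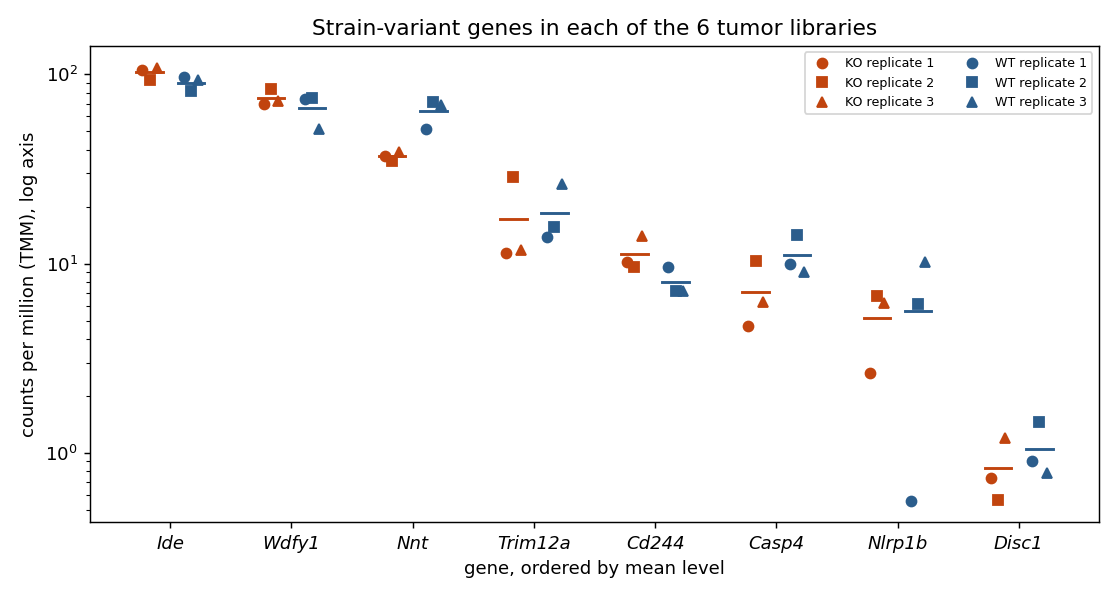
CPM (TMM-normalized, log axis) of the 8 genes with counts, in order of mean level; red symbols are KO libraries, blue symbols are WT libraries, the shape gives the replicate number and bars are group means of 3 mice. Nnt is the 1 gene whose KO libraries all lie below its WT libraries, and Nlrp1b has a single library, WT1 at 0.559 CPM, far below the other 5.

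Nnt encodes the nicotinamide nucleotide transhydrogenase of the inner mitochondrial membrane, which uses the proton gradient to make NADPH for peroxide detoxification. The gene (ENSMUSG00000025453, minus strand) lies at chr13:119335448-119408997 in mm10. It had 37.2, 35.0 and 39.1 CPM in KO1, KO2 and KO3, against 51.2, 71.8 and 68.6 CPM in WT1, WT2 and WT3. Every KO library was below every WT library, and the KO values were closer together than the WT values. Group means were 37.1 ± 2.06 CPM in KO tumors and 63.9 ± 11.1 CPM in WT tumors (SD, n = 3 each). The fitted log2 fold change was -0.78 ± 0.15 (SE).

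This difference did not pass the threshold of edgeR's quasi-likelihood test with Benjamini-Hochberg adjustment over 17254 genes (unadjusted p = 0.00119, adjusted p = 0.429). Of all genes tested, 0.0927% passed that threshold and 5.85% had an unadjusted p below 0.05. An exact two-sided permutation test over the 6 libraries gave p = 0.1, the smallest that 3 against 3 allows. DESeq2, run as an alternative, called Nnt (log2 fold change -0.79, adjusted p = 0.00879) among the 0.638% of genes it called. Over 16 alternative settings the log2 fold change of Nnt stayed between -0.93 and -0.69, the adjusted p ranged from 0.00879 to 1.00, and DESeq2 was the 1 setting that called it. Without KO1 and KO3, which leaves KO2 as the single KO library, the value was -0.87.

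Separation of the groups in this direction was seen in 5.34% of genes tested, and separation with KO above WT in 5.86%. Among the 8 strain-variant genes tested, Nnt was the 1 gene fully below and 0 were fully above, 0 passed the edgeR threshold and 1 had an unadjusted p below 0.05. By sign alone, 3 were higher and 5 lower in KO tumors, and the median log2 fold change was -0.12, against 0.01 over all genes. For the 8 genes together, then, the share with a small p came from Nnt alone.

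Genes that act in the same pathways as the strain-variant genes were read in the same fit: over 135 such genes tested, edgeR called 0, 10 had an unadjusted p below 0.05 and DESeq2 called 2. For Nnt the list was mitochondrial NADPH supply and peroxide handling, with 21 other genes. Of the 21, 0 passed the edgeR threshold in either direction, 8 were higher and 13 lower in KO tumors, and their median log2 fold change was -0.11. The 3 with the smallest p were Me3, Gpx1 and Txnrd2. They were also the 3 of the 21 with every KO library below every WT library. A choice by smallest p favours such genes, so their separation is not a further result. Over all genes tested, 5.34% were separated in this direction. Me3, the mitochondrial malic enzyme that also makes NADPH, had 3.38, 2.81 and 3.91 CPM in KO1 to KO3, against 7.49, 6.51 and 6.55 CPM in WT1 to WT3. Its log2 fold change was -1.02 ± 0.23 (SE; edgeR adjusted p = 0.643), and DESeq2 called it (adjusted p = 0.00232).

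Gpx1, a selenium-dependent glutathione peroxidase, had 363, 431 and 238 CPM in the KO libraries, against 565, 715 and 614 CPM in the WT libraries (edgeR adjusted p = 0.791). Txnrd2, the mitochondrial thioredoxin reductase, had 12.4, 13.4 and 13.4 CPM in the KO libraries, against 17.9, 17.2 and 15.8 CPM in the WT libraries (edgeR adjusted p = 0.793). Thioredoxin and glutathione are both kept reduced with NADPH, and none of these 3 genes passed the edgeR test. Markers of several cell types also differed in sum between the groups, with 0 called in each list and no marker of these lists at 0.

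Of 13 markers of dendritic cells and MHC class II, 12 were lower in KO tumors, 5 of them with every KO library below every WT library, and their summed CPM was 301 to 696 in KO libraries and 1049 to 1256 in WT libraries. Of 11 markers of B and plasma cells tested out of 14, 9 were lower, 6 of them with every KO library below every WT library, and had sums of 2444 to 6189 CPM in KO libraries and 7202 to 11138 CPM in WT libraries. Neither range overlapped between the groups, as was the case for Nnt. Over all genes tested, 5.34% had every KO library below every WT library. Markers of a cell type come from the same mice and can move together, so such counts are not independent results.

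In the other direction, 10 of 10 smooth muscle markers were higher in KO tumors, 7 of them with every KO library above every WT library, and had sums of 928 to 1006 CPM in KO libraries and 458 to 887 CPM in WT libraries. Over all genes tested, 5.86% were separated in this direction. Of 12 fibroblast markers, 11 were higher, and their sums overlapped, at 924 to 3198 CPM in KO libraries and 582 to 1597 CPM in WT libraries. Of 12 epithelial markers, 11 were lower in KO tumors (median log2 fold change -0.18), and their sums, given above, overlapped. The part of these cell types in the values of Nnt and of the NADPH genes was not tested.

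**Figure D2:**
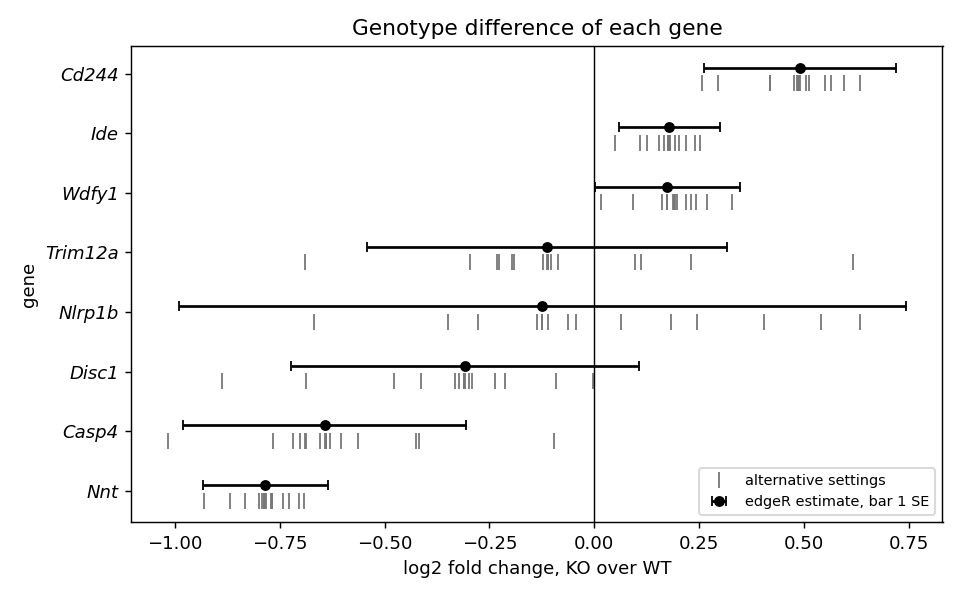
Log2 fold change of KO over WT for the 8 genes tested, from highest to lowest; black points are edgeR estimates with bars of 1 SE, and grey ticks are the alternative settings (other scalings, filters and tests, a replicate block, a sex term, and libraries left out). All ticks of Nnt lie between -0.93 and -0.69, while those of Trim12a and Nlrp1b fall on both sides of 0.

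Wdfy1, Ide, Cd244 and Disc1 spanned 0.71, 0.41, 0.91 and 0.88 log2 units over the 6 libraries on log2(CPM + 0.5), and none passed the edgeR threshold. Wdfy1 (chr1:79702262-79776143) encodes an adaptor that brings TRIF to Toll-like receptors TLR3 and TLR4. It had 70.1, 83.8 and 72.0 CPM in KO1 to KO3, against 73.7, 75.4 and 51.2 CPM in WT1 to WT3. The groups overlapped, with WT3 the lowest library by a gap of 0.45 log2 units (log2 fold change 0.17 ± 0.17 SE, edgeR adjusted p = 0.837). Mrpl44, on the opposite strand, overlaps the gene and held 5537 counts over the 6 libraries. Whether the counting used strand is not stated, so some reads of the overlap could belong to either gene. A further 16 genes matched Wdfy1 at 95% identity, each over fewer than 200 bases.

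Of the 17 other genes of TLR3 and TLR4 signalling through TRIF, 0 passed the edgeR threshold in either direction, 7 were higher and 10 lower, and the median log2 fold change was -0.07. Cd14, the lipopolysaccharide co-receptor, had the smallest p: 18.1, 20.3 and 19.8 CPM in the KO libraries, against 28.9, 27.7 and 28.9 CPM in the WT libraries. All KO libraries lay below all WT libraries (log2 fold change -0.56 ± 0.12 SE, edgeR adjusted p = 0.553), and DESeq2 called Cd14 (adjusted p = 0.0132). Being named for the smallest p favours such separation, seen in 5.34% of all genes tested, so it is not a further result. Wdfy3, a large autophagy scaffold protein, had 53.6, 57.7 and 66.4 CPM in KO libraries, against 53.2, 38.0 and 45.7 CPM in WT libraries (edgeR adjusted p = 0.793).

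Ide (chr19:37268743-37337852) encodes the zinc protease that degrades insulin and amyloid peptides. It had 105.0, 93.7 and 108.6 CPM in KO1 to KO3, against 96.7, 81.4 and 93.3 CPM in WT1 to WT3. It was the steadiest of the 8 genes: highest and lowest library differed 1.33-fold in CPM, and 75.5% of genes with a mean of at least 1 CPM had as wide a range or wider on log2(CPM + 0.5). The log2 fold change was 0.18 ± 0.12 (SE, edgeR adjusted p = 0.811). Its neighbour Fgfbp3, a fibroblast growth factor carrier, had 4.86, 1.88 and 3.07 CPM in KO libraries, against 4.01, 3.24 and 3.22 CPM in WT libraries, and did not follow the order of Ide. Of 14 other genes of insulin and amyloid peptide degradation, 10 were higher and 4 lower, 0 of them called (median log2 fold change 0.14). Ece1, an endothelin-converting enzyme, had the smallest p among them (log2 fold change 0.19, edgeR adjusted p = 0.809).

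Cd244 (chr1:171559193-171609746) encodes 2B4, a SLAM family receptor of NK cells, CD8 T cells and some myeloid cells that binds Cd48. It had 10.2, 9.54 and 13.9 CPM in KO1 to KO3, against 9.60, 7.17 and 7.16 CPM in WT1 to WT3. The groups overlapped only in that KO2 lay just under WT1, and KO3 stood highest. Means were 11.2 ± 2.37 CPM in KO tumors and 7.98 ± 1.40 CPM in WT tumors (SD, n = 3 each). The fitted log2 fold change was 0.49 ± 0.23 (SE, edgeR adjusted p = 0.793).

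Ly9, another SLAM receptor, overlaps Cd244 on the opposite strand and held 343 counts in all, fewer than Cd244 had in KO3 alone. Its ligand Cd48 had 1.02, 2.51 and 1.87 CPM in the KO libraries, against 2.11, 2.01 and 2.35 CPM in the WT libraries. Of 8 other SLAM family genes and adaptors tested, 3 were higher and 5 lower with 0 called (median log2 fold change -0.17), and Slamf7, a receptor of plasma and NK cells, had the smallest p (edgeR adjusted p = 0.827). Summed CPM of 20 T and NK cell markers was 53.3, 118.2 and 52.5 in KO1 to KO3, against 61.9, 79.8 and 99.4 in WT1 to WT3, with none at 0 and 14 of 18 tested lower in KO tumors. This marker sum was lowest in KO3, where Cd244 was highest. Summed CPM of 12 mast cell markers was 736.6, 531.1 and 313.8 in KO1 to KO3, against 237.7, 95.7 and 514.9 in WT1 to WT3. No marker was at 0, and 11 of 12 were higher in KO tumors, as Cd244 was. By this sum, KO3 was the lowest KO library and WT3 the highest WT library. Summed CPM of 15 macrophage markers was 257.7, 351.8 and 353.4 in KO1 to KO3, against 226.9, 322.5 and 355.6 in WT1 to WT3. Among KO libraries it was highest in KO3, as Cd244 was, but it was highest of all in WT3. The part of these cells in the Cd244 values was not tested.

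Disc1 (chr8:125054195-125261858) encodes a centrosomal scaffold protein studied mostly in neurons. It was near the floor of these libraries, with 21, 17 and 50 counts in KO1 to KO3, against 29, 46 and 28 counts in WT1 to WT3. On the CPM scale these were 0.740, 0.561 and 1.20 CPM in KO libraries, against 0.901, 1.45 and 0.784 CPM in WT libraries. The groups overlapped (log2 fold change -0.31 ± 0.41 SE, edgeR adjusted p = 0.875), and a difference of a size like its SE was not detectable at this depth. Short matches of fewer than 200 bases linked Disc1 with 20 other genes. Its neighbour Tsnax, an RNA-binding partner of translin, was far higher in counts, at 64.8 to 90.1 CPM in KO libraries and 73.1 to 81.6 CPM in WT libraries. Of 16 other DISC1 partner genes tested, 11 were higher and 5 lower with 0 called (median log2 fold change 0.03). Cit, a kinase of cytokinesis, had the smallest p, with 28.9, 26.9 and 28.2 CPM in KO libraries, against 20.3, 23.4 and 20.9 CPM in WT libraries (edgeR adjusted p = 0.793).

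Other genes varied more widely. Over the 6 libraries, Nnt, Casp4, Trim12a and Nlrp1b each spanned at least 1 log2 unit, measured on log2(CPM + 0.5), 4 of the 7 strain-variant genes with a mean of at least 1 CPM. The same was true of 26.3% of the 14539 genes at that level, whose median range was 0.639 log2 units. Cd244 passed 1 log2 unit with library size alone (1.10) and Disc1 with a pseudocount of 0.1 CPM (1.23), so their place under that limit depends on the scale. Nnt spanned 1.03 log2 units, and 25.2% of genes were as wide. Its widest gap, 0.42 log2 units, lay within the WT group, with WT2 and WT3 above and WT1 and the 3 KO libraries below. For Casp4, Trim12a and Nlrp1b, libraries of the same genotype differed by more than the group means did.

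**Figure D3:**
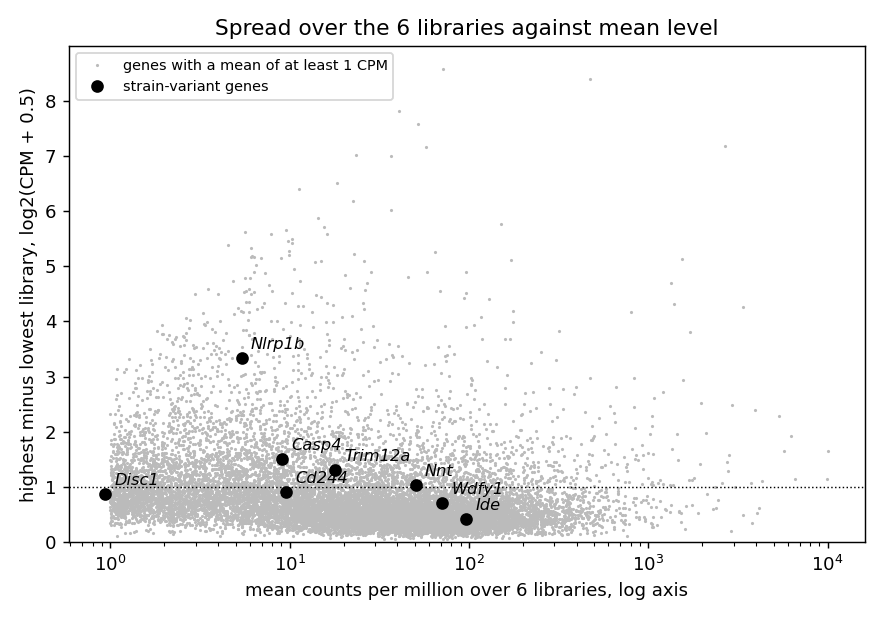
Range over the 6 libraries, as the highest minus the lowest log2(CPM + 0.5), against mean CPM (log axis); grey dots are the 14539 genes with a mean of at least 1 CPM, black points are the 8 strain-variant genes with counts and the dotted line marks 1 log2 unit. Nlrp1b lies highest of the black points at 3.34 log2 units and Ide lowest at 0.41.

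Nlrp1b encodes an inflammasome sensor that is activated when proteases such as anthrax lethal factor cut its amino terminus, and its alleles differ in this response between inbred strains. The gene (ENSMUSG00000070390) lies at chr11:71153102-71230733 on the minus strand. It had 75, 203 and 258 counts in KO1 to KO3, against 18, 195 and 366 counts in WT1 to WT3. On the CPM scale these were 2.64, 6.70 and 6.19 CPM in KO libraries, against 0.559, 6.14 and 10.2 CPM in WT libraries. WT1 stood alone, 1.57 log2 units below KO1, the next lowest. Its 18 counts were above the limit of 3 counts. They were as few as those of Disc1 (17 to 50 counts), so the size of the gap carries counting error.

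The group means of Nlrp1b, 5.18 ± 2.21 CPM in KO tumors and 5.65 ± 4.86 CPM in WT tumors (SD, n = 3 each), differed by far less than the spread among WT mice. The log2 fold change was -0.12 ± 0.87 (SE, edgeR adjusted p = 0.980), and its sign turned in 6 of 16 alternative settings, among them those without KO1 (0.18), without WT3 (0.63) and without KO1 and KO3 (0.24). Highest and lowest library differed 18.3-fold in CPM. On log2(CPM + 0.5) the range was 3.34 log2 units, which 1.46% of genes with a mean of at least 1 CPM reached. The biological coefficient of variation fitted for Nlrp1b was 0.727, against a trend of 0.372 for genes of its level.

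A fall in WT1 as wide as that of Nlrp1b was not seen in the genes around it with a mean of at least 1 CPM. Within 500 kb, 14 genes had a mean of at least 1 CPM and 0 of them spanned 1 log2 unit. The paralog Nlrp1a had 0.106, 0.165 and 0.480 CPM in KO1 to KO3, against 0, 0.126 and 0.252 CPM in WT1 to WT3. It was also lowest in WT1, at counts too low to test. Nlrp1b supplied 92.8% to 97.6% of the counts of both genes in KO libraries and 97.6% to 100% in WT libraries. The 95% Wilson intervals ran from 82.4% to 100% (counting error only). No other annotated transcript matched Nlrp1b at 95% identity over 100 bases, so counts shared with an annotated near copy were not found for it.

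The gene most like Nlrp1b over the 6 libraries was Tnfsf13os, a noncoding transcript 1.46 Mb away on the same chromosome, with a root mean square difference of 0.302 in centred log2 values, against a median of 1.13 over 14538 genes. It had 1.27, 4.13 and 2.74 CPM in KO1 to KO3, against 0.497, 4.22 and 5.82 CPM in WT1 to WT3, with WT1 lowest and WT3 highest. It was picked for this likeness, so the shared order is not a further result. The next most alike were Rdh16, a retinol dehydrogenase on chromosome 10 (0.434), and Kbtbd11 on chromosome 8 (0.453). Rdh16 had 4.90, 26.2 and 9.46 CPM in KO libraries, against 2.14, 11.3 and 20.7 CPM in WT libraries.

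Casp4 encodes caspase-11, which binds cytosolic lipopolysaccharide and cleaves gasdermin D in the noncanonical inflammasome. The gene (ENSMUSG00000033538, plus strand) lies at chr9:5308828-5336783, 45.8 Mb from the deleted Mir34b and Mir34c on the same chromosome. It had 4.65, 10.4 and 6.26 CPM in KO1 to KO3, against 9.97, 14.2 and 9.07 CPM in WT1 to WT3. KO1 and KO3, the libraries that stood apart on the first principal component, were the lowest, and KO2 lay within the WT range. Means were 7.09 ± 2.95 CPM in KO tumors and 11.1 ± 2.73 CPM in WT tumors (SD, n = 3 each), and the fitted log2 fold change was -0.64 ± 0.34 (SE, edgeR adjusted p = 0.793). Without KO1 and KO3, which leaves KO2 as the single KO library, the log2 fold change was -0.10. In range, 11.8% of genes were as wide as Casp4.

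Casp1, the adjacent caspase that matures interleukin-1 beta, showed the same order of low libraries, with 44.9, 101.5 and 59.0 CPM in KO1 to KO3, against 91.2, 101.7 and 91.1 CPM in WT1 to WT3. Casp4 made up 9.40%, 9.27% and 9.60% of the counts of both caspases in KO1 to KO3, against 9.86%, 12.2% and 9.06% in WT1 to WT3. The share was nearly constant while both genes varied more than 2-fold, and only WT2 (95% Wilson interval 11.2% to 13.3%) lay above the intervals of all other libraries. Casp12, the other caspase of the cluster, stayed between 4.72 and 4.86 CPM in KO libraries and between 3.96 and 5.60 CPM in WT libraries.

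The nearest profiles to Casp4 elsewhere in the genome were those of 2310001H17Rik (root mean square difference 0.0874), Mocs1, an enzyme of molybdenum cofactor synthesis (0.109), and Rapgefl1 (0.111), against a median of 0.540. Mocs1 had 42.0, 88.1 and 47.9 CPM in KO1 to KO3, against 95.4, 127 and 77.0 CPM in WT1 to WT3. Each was lowest in KO1 and highest in WT2, as Casp4 was, which follows from their choice by likeness of profile.

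Of 29 other inflammasome and pyroptosis genes tested, 0 passed the edgeR threshold, 9 were higher and 20 lower in KO tumors, and the median log2 fold change was -0.20. The 3 with the smallest p were Gsdmc2 and Gsdmc4, epithelial gasdermins, and Pycard, the adaptor that joins sensors to caspase-1. Gsdmc2 had 116, 16.7 and 64.8 CPM in KO libraries, against 10.3, 0.409 and 12.8 CPM in WT libraries (log2 fold change 3.07 ± 1.10 SE, edgeR adjusted p = 0.793). Gsdmc4 had 160, 24.5 and 94.2 CPM in KO libraries, against 15.7, 0.346 and 18.7 CPM in WT libraries (edgeR adjusted p = 0.793). Both were higher in every KO library than in any WT library, which their choice by smallest p favours, and KO1 and KO3 were the highest. Pycard had 61.9, 114 and 72.8 CPM in KO libraries, against 104, 174 and 138 CPM in WT libraries, with overlap at KO2 (edgeR adjusted p = 0.793). With KO1 and KO3 left out, KO2 is the single KO library. The log2 fold change was then 1.09 for Gsdmc2, 1.07 for Gsdmc4, -0.28 for Pycard and 0.10 for Casp1, so the sign of Casp1 turned.

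Summed CPM of 30 interferon response genes, 3 of which (Gbp2, Gbp3 and Gbp5) are also in the inflammasome list, was 528, 1008 and 459 in KO1 to KO3, against 741, 929 and 1027 in WT1 to WT3, with none at 0. Of these 30 genes, 27 were lower in KO tumors with 0 called (median log2 fold change -0.53). The sum was lowest in KO1 and KO3, the libraries in which Casp4, Casp1 and Pycard were also lowest. The sums of MHC class II and of B and plasma cell markers given above were lower in KO tumors too. The part of these genes and cells in the values of Casp4 and of the inflammasome genes was not tested.

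Trim12a encodes a mouse relative of the TRIM5 proteins that restrict retroviruses, and sits in a cluster of Trim genes on chromosome 7. The gene (ENSMUSG00000066258) lies at chr7:104299894-104315466 on the minus strand. It had 11.3, 28.6 and 11.7 CPM in KO1 to KO3, against 13.8, 15.5 and 26.4 CPM in WT1 to WT3. KO2 and WT3 stood above the other 4 libraries by a gap of 0.75 log2 units, and these are the libraries of the male mice, 1 in each group. Nlrp1b had the same highest pair, WT3 at 10.2 CPM and KO2 at 6.70 CPM, with KO3 close to KO2 at 6.19 CPM. With 1 male per genotype, sex and mouse cannot be told apart within a genotype. The part of sex in these values was not tested.

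Group means of Trim12a were 17.2 ± 9.86 CPM in KO tumors and 18.6 ± 6.86 CPM in WT tumors (SD, n = 3 each). The log2 fold change was -0.11 ± 0.43 (SE, edgeR adjusted p = 0.962). Its sign turned without KO1 (0.11), without KO3 (0.10), without WT3 (0.23) and without KO1 and KO3 together (0.62). The range of 1.30 log2 units was reached by 16.4% of genes.

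The Trim genes beside Trim12a varied as well. Within 500 kb, 8 genes had a mean of at least 1 CPM and all 8 spanned at least 1 log2 unit, which is 100% against the 26.3% given above. In 4 of the 8, Trim34a, Trim5, Trim30a and Trim30d, KO2 and WT3 were the highest pair of libraries, as in 10.9% of all genes at that level. These neighbours are not independent of Trim12a, since some share sequence or overlap it.

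Trim5, 0.0118 Mb away and among the 3 profiles most like that of Trim12a (root mean square difference 0.122), had 3.88, 8.78 and 3.79 CPM in KO1 to KO3, against 4.72, 4.18 and 9.10 CPM in WT1 to WT3. Trim30a, a TRIM protein that dampens Toll-like receptor signalling, had 6.13, 15.6 and 5.52 CPM in KO libraries, against 7.86, 9.06 and 17.7 CPM in WT libraries. Trim5 and Trim30a therefore shared the high pair KO2 and WT3.

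Trim12c and Trim6 had another pattern. Trim12c had 14.3, 29.5 and 14.8 CPM in KO1 to KO3, against 24.5, 27.0 and 23.3 CPM in WT1 to WT3. Trim6 had 5.36, 11.2 and 4.87 CPM in KO libraries, against 9.72, 11.8 and 10.1 CPM in WT libraries. In both, KO1 and KO3 were the low pair and the 3 WT libraries were alike, and neither passed the edgeR test (adjusted p = 0.818 for Trim12c and 0.805 for Trim6). Without KO1 and KO3, which leaves KO2 as the single KO library, their log2 fold changes turned in sign. They were 0.24 for Trim12c, against -0.35 with all libraries, and 0.09 for Trim6, against -0.56 with all libraries. This turn restates that KO1 and KO3 were the low pair and is not a separate result.

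**Figure D4:**
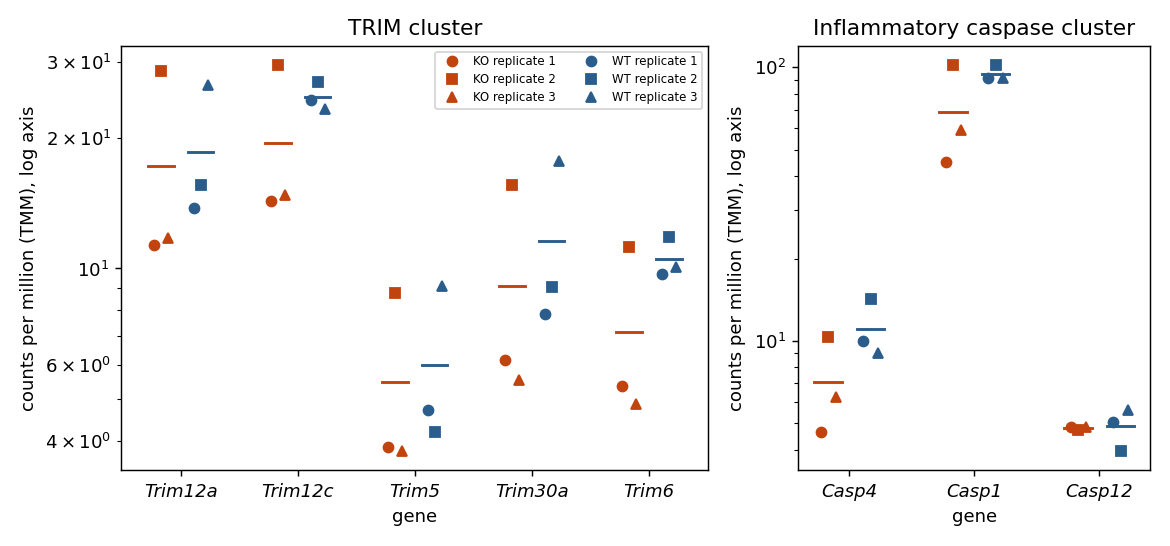
CPM (log axis) of Trim12a with 4 genes of its cluster on chromosome 7 (left) and of Casp4 with Casp1 and Casp12 on chromosome 9 (right); red symbols are KO libraries, blue symbols are WT libraries, the shape gives the replicate number and bars are group means of 3 mice. In Trim12a, Trim5 and Trim30a the red square (KO2) and blue triangle (WT3) are the highest, and in Trim12c, Trim6, Casp4 and Casp1 KO1 and KO3 are the lowest.

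The share of Trim12a in the counts of Trim12a and Trim12c gives the contrast of the near copies within a library. It was 44.2%, 49.3% and 44.3% in KO1 to KO3, against 36.0%, 36.6% and 53.1% in WT1 to WT3. The 95% Wilson intervals of WT1 and WT2 (33.4% to 39.2% in all) lay below those of the other 4 libraries (40.6% to 55.4% in all). Between these genes BLAST found 96.5% identity over 981 bases, and Trim5 matched Trim12a at 97.0% over 953 bases, so the way reads with several alignments were treated, which is not stated, could move counts among the 3 genes. A further 26 genes matched Trim12a over fewer than 200 bases. Trim34a, Trim34b and Gm15133 overlap Trim12a on the opposite strand and held 630, 33 and 47 counts over the 6 libraries.

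The other profiles most like that of Trim12a were Hnf4g (0.105), a nuclear receptor of enterocytes, and Lpin2 (0.111), a phosphatidate phosphatase, against a median of 0.575. Hnf4g had 57.2, 165 and 73.5 CPM in KO1 to KO3, against 83.2, 87.7 and 139 CPM in WT1 to WT3. KO2 and WT3 were its highest pair, and it lies on another chromosome. A choice by likeness of profile favours this, so the shared pair is not a further result. The 12 epithelial markers had their highest sums in the same libraries, 18399 CPM in KO2 and 20747 CPM in WT3. Their part in the Trim12a values was not tested.

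Trim genes of this cluster are known as interferon-induced genes, and interferon-stimulated promoters often hold an interferon-stimulated response element, whose core was taken here as TTTC, any 2 bases and TTTC again. That motif was searched on both strands in RefSeq promoter windows of 300 bases (GRCm38.p6), and 3.44% of 32851 windows held it. Of the strain-variant genes, 6 of 9 had a promoter entry and Trim12a was the 1 gene with a match. Trim12c, Trim5 and Trim30a held it as well, so 4 of these 4 cluster genes did, and they share sequence around it. The 4 were picked by name. The motif was not tabulated for other genes of the cluster, such as Trim6 and Trim34a, so no share for the cluster is given. The 90 bases from 60 before to 30 after each start are shown because they place the motif, in capitals, in near-identical surroundings at Trim12a, Trim12c and Trim5. The windows are chr7:104315466-104315555 for Trim12a, chr7:104353320-104353409 for Trim12c, chr7:104288077-104288166 for Trim5 and chr7:104465164-104465253 for the Trim30a window shown, all on the minus strand and written 5′ to 3′.
Trim12a promoter: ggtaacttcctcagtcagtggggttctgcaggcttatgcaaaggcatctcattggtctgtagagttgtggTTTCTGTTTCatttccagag
Trim12c promoter: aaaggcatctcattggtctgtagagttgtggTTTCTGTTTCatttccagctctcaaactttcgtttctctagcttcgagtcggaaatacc
Trim5 promoter: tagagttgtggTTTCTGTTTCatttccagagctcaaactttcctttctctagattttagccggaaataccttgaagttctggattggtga
Trim30a promoter: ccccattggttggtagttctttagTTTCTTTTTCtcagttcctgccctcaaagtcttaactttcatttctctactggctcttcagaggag

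A match describes letters and no binding was measured. Counted from the RefSeq starts, the motif began 11 bases after that of Trim12a. It began 29, 49 and 36 bases before those of Trim12c, Trim5 and the Trim30a window shown. In another Trim30a window it began 3 bases after the start. The place of the motif depends on the annotation. The Trim12a coordinates given above start at 104315466 on the minus strand, the last base of its window, and the motif lies before that start. The summed level of interferon response genes given above was high in KO2 and WT3, as Trim12a was, but also in WT2, where Trim12a was not, and its part in the Trim12a values was not tested. Of 12 other Trim genes tested, 3 were higher and 9 lower with 0 called (median log2 fold change -0.18).

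Entpd4 encodes a Golgi nucleoside diphosphatase that clears the UDP left by glycosylation. The gene (ENSMUSG00000095463) lies at chr14:69337174-69367270, and its copy Entpd4b (ENSMUSG00000022066) at chr14:69555424-69585520. Both were listed at 0 counts in all 6 libraries, which at 3 counts per library allows up to 0.0782 to 0.114 CPM. Since the transcripts shown above are identical, a read from either gene aligns equally well to both, and a count of 0 here does not say that the tumors lack the transcript. The genes Gm16867, Gm27221, Gm27177 and Gm27176, which match Entpd4 without a mismatch over 350 to 1133 bases, were also at 0.

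Of 18 other ectonucleotidase and Golgi nucleotidase genes tested, 9 were higher and 9 lower, 0 were called, and the median log2 fold change was 0.01. Uggt2, a folding sensor of the endoplasmic reticulum that uses UDP-glucose, had the smallest p, with 4.37, 4.99 and 4.92 CPM in KO libraries, against 3.04, 2.55 and 3.36 CPM in WT libraries. All KO libraries were above all WT libraries (log2 fold change 0.67 ± 0.23 SE, edgeR adjusted p = 0.793), which a choice by smallest p favours. Over all genes tested, 5.86% were separated in this direction. Cant1, a Golgi enzyme that also hydrolyses UDP, was abundant in both groups, at 158 to 208 CPM in KO libraries and 186 to 216 CPM in WT libraries.

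Genes close to the strain-variant genes tend to be inherited together with them, and 281 genes were found within 500 kb of them. Of these, 121 were tested, 0 passed the edgeR threshold, 7 had an unadjusted p below 0.05 and DESeq2 called 0. Every KO library was above every WT library for 7 and below for 5, and the median log2 fold change was 0.00. Widening the window to 1 Mb also gave 0 called. The shares among the 121 were close to those over all genes.

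The neighbours with the smallest p lay beside different genes. That choice favours genes whose groups separate, so separation among them is not a further result. Itln1, an intelectin of the intestine, near Cd244, had 340, 164 and 278 CPM in KO1 to KO3, against 128, 113 and 160 CPM in WT1 to WT3. All KO libraries were above all WT libraries (log2 fold change 0.97 ± 0.28 SE, edgeR adjusted p = 0.793). Zfp131, a zinc finger protein near Nnt, had 30.8, 29.8 and 32.3 CPM in KO libraries, against 22.8, 20.2 and 24.8 CPM in WT libraries (log2 fold change 0.46 ± 0.12 SE, edgeR adjusted p = 0.790). Among the 9 genes tested beside Nnt, 8 were higher and 1 lower in KO tumors, opposite to the sign of Nnt itself.

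Read by library, no mouse stood out in all 8 genes at once. KO1 was the lowest library for Casp4 and Trim12a, KO2 for Nnt and Disc1, WT1 for Nlrp1b, WT2 for Ide and WT3 for Wdfy1 and Cd244. The highest library was KO2 for Wdfy1 and Trim12a, KO3 for Ide and Cd244, WT2 for Nnt, Casp4 and Disc1, and WT3 for Nlrp1b. The mean absolute deviation from the gene mean over the 8 genes was 0.345, 0.351 and 0.343 log2 units in KO1 to KO3, against 0.355, 0.376 and 0.424 log2 units in WT1 to WT3. The KO libraries that lay apart on the first principal component were therefore no farther from the gene means than the rest.

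**Figure D5:**
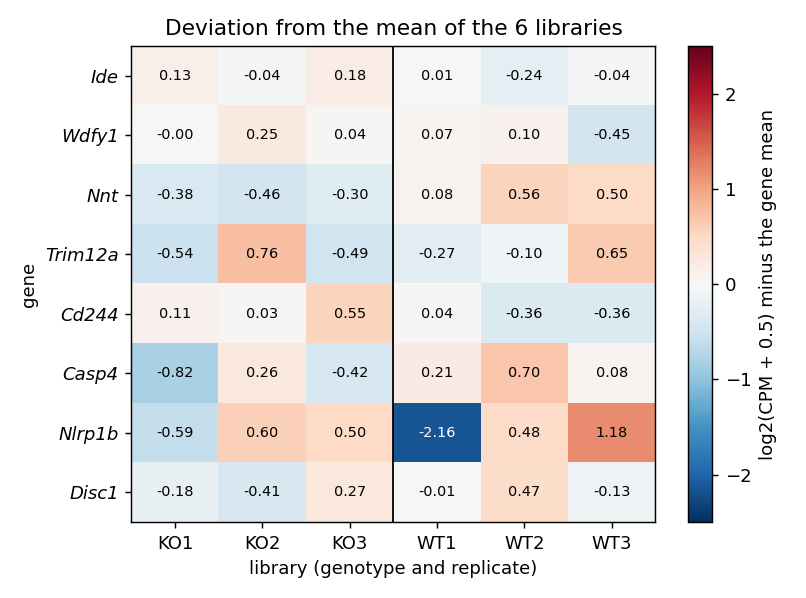
Deviation of each library from the mean of the 6 libraries, on log2(CPM + 0.5), for the 8 genes with counts; columns are libraries with KO left of the line and WT right of it, red is above and blue below the mean. Nnt is below its mean in all 3 KO libraries, Trim12a is above only in KO2 and WT3, and the largest deviation is -2.16 for Nlrp1b in WT1.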

How the data were processed

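Whole-number counts per Ensembl gene were deposited by the authors in a table for each library. The submitters' processing notes name alignment with TopHat2 2.1.0, counting with HTSeq 0.6.1 and the build mm10. How strand and multiply aligned reads were handled is not stated in those notes or the labels. Replicates are separate mice, per the series' design text. Names came from GENCODE M21 (45143 of 46078 genes). Genes were filtered with filterByExpr (17254 left), scaled by TMM and compared with edgeR 4.0.16 in R 4.3.3 (quasi-likelihood F-test, robust, Benjamini-Hochberg, threshold 0.05), with KO over WT on all 6 libraries. CPM use TMM library sizes, and SE is the fold change over the square root of F. Ranges use log2(CPM + 0.5). Alternatives included DESeq2 1.42.0 and limma-voom (limma 3.58.1). Copies were sought with BLAST 2.17.0 (95% identity, 100 bases) and aligned with MAFFT 7.526. Intervals and limits cover counting error only. The fit was tested on simulated data.

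The members and lists were chosen with earlier results of these data known. Beside the members, the text names up to 3 genes per list and up to 3 neighbours per member by smallest p, near-identical copies, and the 3 nearest profiles of members spanning at least 1 log2 unit. Fgfbp3, Tsnax, Cd48, Ly9, Casp12, Nlrp1a and the Trim genes shown by library were added for their position or family.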

Additional observations from a re-analysis of the deposited data

How the results depend on the processing

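Among all genes, 16 passed the threshold, against 110 with DESeq2, 9 to 41 with 1 library left out (9 without KO1, 41 without KO2, 10 without KO3, 29 without WT3) and 2 without KO1 and KO3. Of the 8 strain-variant genes, 0 passed in any edgeR or limma setting and 1, Nnt, with DESeq2 (-0.79). Of the genes of the pathway lists, 2 passed with DESeq2. Nnt, Casp4, Wdfy1, Ide, Disc1 and Cd244 kept their sign in every setting run. Trim12a reversed without KO1 (0.11), KO3 (0.10) or WT3 (0.23) and without KO1 and KO3 (0.62), and was -0.69 without KO2. Nlrp1b reversed with limma-voom (0.54), a replicate block (0.41), a sex term (0.063), without KO1 (0.18) or WT3 (0.63) and without KO1 and KO3 (0.24), and was -0.67 without WT1. For Nlrp1b and Trim12a the cause was not tested. The sex term called 0 strain-variant genes. The labels do not say whether mice of the same replicate number were paired. Deviations of same-numbered mice correlated at 0.22, 0.27 and 0.08, against -0.30 to 0.18 for other pairs, and KO3 correlated best with WT1 (0.18). A replicate block gave 14 called genes, 0 of them strain-variant. Genes with an unadjusted edgeR p below 0.05 went from 1010 to 1633 with it. For Casp4 that p went from 0.0982 to 0.0187 (adjusted p = 0.433 with the block). At least 1 log2 unit was spanned by 4 strain-variant genes with TMM and with DESeq2 size factors, and by 5 with library size alone or a pseudocount of 0.1 CPM. Disc1 was not tested at 1 CPM in 3 libraries. With 3 mice a group, small differences were beyond reach, and the lone KO2 is assumed to vary like the other mice.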
